A study of Homo sapiens with 18 samples.

Results

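The collagen chains and a small group of matrix glycoproteins were described across pure and mixed cultures of a pair of human epithelial cell lines, with and without ionizing radiation. The genes were chosen by symbol: every symbol made of COL, a type number, A and a chain number, together with FN1, TNC, THBS1, THBS2, SPARC, SPP1 and POSTN. The count tables held 51 such symbols (44 collagen chains and 7 others) among 40916 symbols in all. The 32 genes that reached a mean of 1 count per 1000000 library counts (CPM) in at least 1 of the 6 groups are reported, 26 collagen chains and 6 glycoproteins. Over all symbols, 15436 reached that level. The 19 genes under 1 CPM in every group were COL1A2, COL2A1, COL3A1, COL5A3, COL6A5, COL6A6, COL8A2, COL9A1, COL14A1, COL15A1, COL19A1, COL20A1, COL21A1, COL22A1, COL23A1, COL25A1, COL26A1, COL28A1 and THBS2. Just inside the threshold lay COL11A1, COL10A1 and COL24A1, with highest group means of 1.07, 1.22 and 1.59 CPM. Just outside lay COL5A3, COL8A2 and COL28A1 with 0.961, 0.947 and 0.939 CPM.

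MCF10A is a line of non-transformed mammary epithelial cells, here carrying a green fluorescent histone (H2B-GFP) and grown in F12:DMEM with horse serum, EGF, hydrocortisone, cholera toxin and insulin. HCT116 is a colorectal carcinoma line, here without the fluorescent label, p53-null, and grown in McCoy's 5A with fetal bovine serum. Each line was cultured alone and in a 50-50 mixture, and the medium of the mixtures is not given in the sources used here. Each of these was kept without radiation (NIR) or exposed to 10 Gy (IR), in 3 biological replicates per group, so 18 libraries of poly(A)-selected RNA were compared. The time of harvest is day 2 in the titles of the samples and 72 h after irradiation in the series text. The lines differ in tissue of origin, p53 status, label and medium together, and these cannot be told apart in any difference between them. The comparison of irradiated with non-irradiated cultures asks how the expression of these genes differed after radiation in each line. The mixtures add how the same genes stood when both lines shared a culture.

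Collagens are secreted proteins in which a trimer of alpha chains winds into a triple helix. Type IV collagen forms the network of basement membranes, in which epithelia sit, and its chains occur in defined trimers: COL4A1 with COL4A2, COL4A3 with COL4A4 and COL4A5, and COL4A5 with COL4A6. Fibrillar types such as I, V and XI build fibres, type VI forms beaded filaments, and types VII and XVII fasten basal epithelial cells to the matrix below them. Fibronectin (FN1), tenascin-C (TNC), thrombospondin-1 (THBS1), SPARC, osteopontin (SPP1) and periostin (POSTN) are secreted glycoproteins that bind cells, collagens or both, and several of them are known for their roles in wound repair.

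The 6 type IV chains are encoded as 3 head-to-head pairs, each pair sharing the stretch between its starts, and the pairs differed from one another in level and in response. In RefSeq's annotation of GRCh38.p14 the starts of COL4A1 and COL4A2 on chromosome 13 lie 127 bases apart. Those of COL4A4 and COL4A3 on chromosome 2 lie 419 bases apart, and those of COL4A6 and COL4A5 on chromosome X lie 380 bases apart. For COL4A6 the listed start nearer to COL4A5 was taken. The stretch between the COL4A1 and COL4A2 starts (chr13:110307158-110307283, plus strand) and the 250 bases before the starts of the other chains are shown because each pair shares the stretch between its starts. These are COL4A3 at chr2:227164374-227164623 on the plus strand, COL4A4 at chr2:227164206-227164455 on the minus strand, COL4A5 at chrX:108439588-108439837 on the plus strand and COL4A6 at chrX:108439459-108439708 on the minus strand. Capitals mark matches on either strand to CCAAT (the CCAAT box) or GGGCGG (the GC box). The AP-1 motif TGANTCA and the TATA box TATAAA were also searched for and had no match in these stretches.
COL4A1-COL4A2: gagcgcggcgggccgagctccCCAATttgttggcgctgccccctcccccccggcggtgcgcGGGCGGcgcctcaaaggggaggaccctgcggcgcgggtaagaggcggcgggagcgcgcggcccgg
COL4A3: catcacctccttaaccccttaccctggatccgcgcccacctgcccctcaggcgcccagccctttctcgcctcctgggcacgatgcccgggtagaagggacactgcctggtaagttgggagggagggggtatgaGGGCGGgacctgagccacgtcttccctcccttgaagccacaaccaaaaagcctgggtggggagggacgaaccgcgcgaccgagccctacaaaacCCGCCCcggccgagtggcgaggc
COL4A4: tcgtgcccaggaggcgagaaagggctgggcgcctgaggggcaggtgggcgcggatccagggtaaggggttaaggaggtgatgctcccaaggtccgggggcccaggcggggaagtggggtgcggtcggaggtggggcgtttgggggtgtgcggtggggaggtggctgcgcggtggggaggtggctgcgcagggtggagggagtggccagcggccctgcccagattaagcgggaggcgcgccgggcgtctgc
COL4A5: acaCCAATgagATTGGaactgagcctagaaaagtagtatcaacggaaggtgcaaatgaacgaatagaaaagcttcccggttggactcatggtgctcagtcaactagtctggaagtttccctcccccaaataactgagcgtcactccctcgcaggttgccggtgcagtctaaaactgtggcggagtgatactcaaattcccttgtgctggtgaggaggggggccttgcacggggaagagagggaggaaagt
COL4A6: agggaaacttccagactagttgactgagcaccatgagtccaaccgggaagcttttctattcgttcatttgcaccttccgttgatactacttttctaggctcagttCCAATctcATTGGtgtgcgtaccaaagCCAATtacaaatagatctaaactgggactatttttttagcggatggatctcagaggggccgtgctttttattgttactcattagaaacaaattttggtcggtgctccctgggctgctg
The stretch between COL4A1 and COL4A2 held 1 CCAAT box and 1 GC box. The COL4A3 stretch held 2 GC boxes and the COL4A4 stretch none of the motifs. COL4A5 held 2 CCAAT boxes and COL4A6 held 3, of which 2 are the same bases seen from the opposite strand, since their stretches overlap. Another COL4A6 start is listed farther from COL4A5. Its stretch, from chrX:108438423, is not printed and held 1 GC box and no CCAAT box. Of 35116 RefSeq stretches of the same 250 bases, 32.0% held a CCAAT box, 42.6% a GC box, 10.7% a TATA box and 6.57% an AP-1 motif. Of the 36 stretches listed for 27 of the 32 reported genes, 30.6% held a CCAAT box, 58.3% a GC box, 22.2% a TATA box and 5.56% an AP-1 motif. No match overlapped a match of another motif in the stretches printed. A match of letters describes the stretch and is not a bound site.

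Library totals ranged from 25737818 to 40839835 counts. Of the counts from 1 to 10, 68.3% were even, a pattern that 2 counts per read pair would give, and fits with halved counts are among the alternatives. All 10 basal mammary markers on the list used (keratins KRT5, KRT14 and KRT17, TP63 and others) reached 1 CPM in MCF10A, and their summed level was 7231 to 7759 CPM in NIR and 10698 to 11073 CPM in IR. In HCT116, 2 of the 10 reached 1 CPM in NIR (CDH3 and LAMB3) and 6 in IR, with sums of 233 to 249.8 and 329 to 355 CPM. CDH3 went the other way between the lines, with a mean of 196 CPM in HCT116 NIR and 147 CPM in MCF10A NIR. LAMB3 was 41.9 CPM in HCT116 NIR and 1598 CPM in MCF10A NIR. Of 9 intestinal markers, none reached 1 CPM in MCF10A and 2 to 3 did in HCT116, at summed levels of only 12.7 to 18.9 CPM. Of 12 fibroblast and mesenchymal markers, 4 reached 1 CPM in MCF10A (DCN, FAP, PDGFRL and TWIST2), summing to 182 to 201 CPM in NIR and 355 to 375 CPM in IR. In HCT116 only PDGFRL did, with means of 11.2 CPM in NIR and 9.56 CPM in IR. It was lower in MCF10A, at 1.36 and 2.52 CPM. PDGFRA, PDGFRB and THY1 were below 1 CPM in both lines. Mitochondrial genes took 5.10 to 5.32% of counts in MCF10A NIR and 6.06 to 6.35% in IR, 8.42 to 8.75% and 11.5 to 12.3% in HCT116, and 8.37 to 8.73% and 12.0 to 12.7% in the mixture. The part of these marker and mitochondrial differences in the results below was not tested.

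MCF10A gave far more of its RNA to these genes than HCT116. The summed share of the 32 genes was 0.468% ± 0.00959 of all counts in MCF10A NIR and 0.0758% ± 0.00410 in HCT116 NIR (mean ± SD, n = 3 in every group). Irradiated MCF10A reached 1.00% ± 0.0413 and irradiated HCT116 0.0881% ± 0.00344. The mixed cultures held 0.0905% ± 0.00184 in NIR and 0.145% ± 0.00723 in IR. In both treatments every mixed library lay above the HCT116 libraries and far below those of MCF10A. In bulk RNA of this kind, fewer cells of a type and less RNA per cell cannot be told apart. FN1 made up much of the rise in MCF10A: without it the sum went from 3352 ± 57.6 CPM to 4241 ± 75.3 CPM, against 4677 ± 95.9 CPM to 10009.7 ± 413 CPM with it.

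Most members tested differed in level between the non-irradiated lines, in both directions. With edgeR's quasi-likelihood test and adjustment over all genes, 28 of 29 members tested differed between HCT116 NIR and MCF10A NIR at an adjusted p under 0.05, the threshold for a call throughout. Of these, 12 were higher and 16 lower in HCT116. COL11A1 was a member only through its level in MCF10A NIR and COL8A1 only through MCF10A. COL4A1, COL4A2 and TNC reached 1 CPM only in MCF10A and the mixtures. The calls of these genes as lower follow in part from the member rule. COL6A2, COL9A2, COL9A3 and COL11A2 reached 1 CPM only in HCT116 and the mixtures, so their calls as higher follow in part from that rule. The same test called 74.8% of all genes, 38.7% higher and 36.1% lower. How many of all genes had groups without overlap was not counted, so statements of overlap below describe single genes only. The median log2 difference was -1.51 over the members and 0.05 over all genes, the latter 0.25 with upper-quartile scaling, under which 62.4% of all calls were higher in place of 51.8%. All 28 calls held in every alternative fit that gave the gene an adjusted p, those with a library left out included.

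Within type IV, the pair COL4A1 and COL4A2, the chains of the common basement membrane network, was expressed in MCF10A and close to absent in HCT116. COL4A1 stood at 122, 118 and 121 CPM in MCF10A NIR and at 0.116, 0.0622 and 0.217 CPM in HCT116 NIR. COL4A2 stood at 261, 259 and 270.1 CPM against 0.231, 0.186 and 0 CPM. The libraries of the lines lay far apart, with log2 differences of -10.04 ± 0.14 (SE, adjusted p = 9.6e-20) for COL4A1 and -10.95 ± 0.15 (adjusted p = 7.2e-20) for COL4A2. The pair COL4A3 and COL4A4, chains of a network known from kidney and lung, had the reverse pattern. COL4A3 was 0.882, 0.282 and 0.239 CPM in MCF10A NIR and 32.7, 30.3 and 29.0 CPM in HCT116 NIR, a log2 difference of 5.80 ± 0.23 (adjusted p = 1.6e-13). Without MCF10A NIR replicate 1, the highest of its group, that difference was 6.63. COL4A4 was 2.12, 2.85 and 2.12 CPM against 36.2, 32.2 and 34.8 CPM, a log2 difference of 3.66 ± 0.14 (adjusted p = 4.9e-14). Both chains of this pair were higher in every HCT116 library than in any MCF10A library. COL4A5 and COL4A6 were expressed in both lines and higher in MCF10A. COL4A5 was 156, 141 and 156 CPM in MCF10A NIR and 78.9, 54.9 and 48.8 CPM in HCT116 NIR (log2 difference -1.51 ± 0.11, adjusted p = 1.3e-09). COL4A6 was 125, 120.1 and 128 CPM against 11.5, 10.0 and 6.48 CPM (-3.92 ± 0.12, adjusted p = 3.9e-15). Members of a pair thus had the same direction between the lines in all 3 pairs. As ratios of CPM, which also carry the lengths of the transcripts, COL4A5 over COL4A6 was 1.21 in MCF10A NIR and 6.62 in HCT116 NIR.

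**Figure D1:**
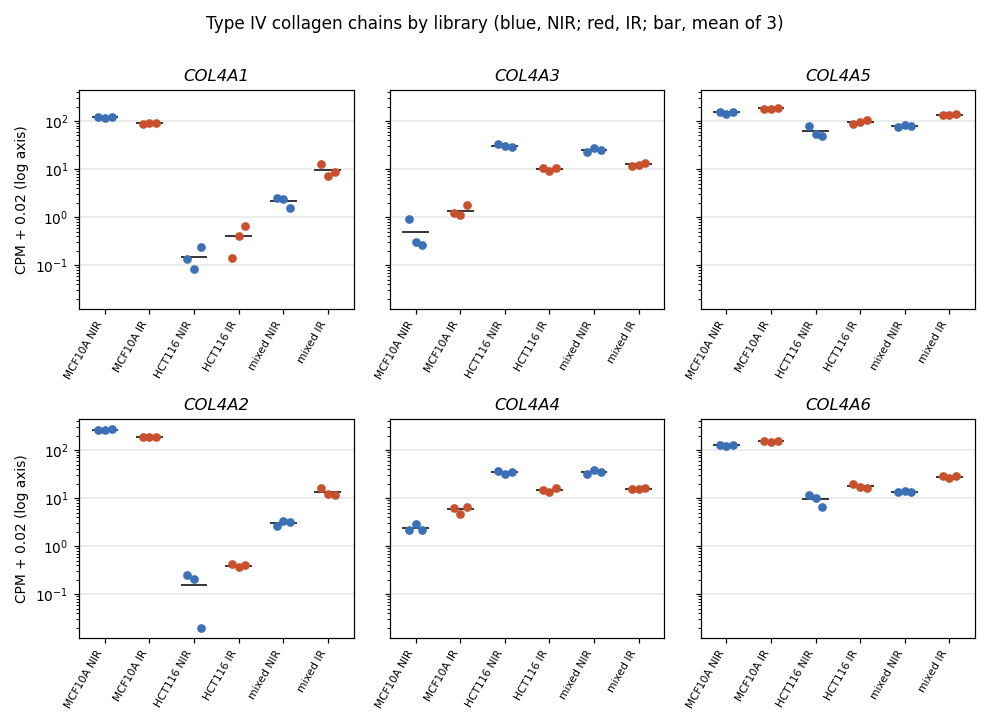
Levels of the 6 type IV collagen chains in all 18 libraries, as CPM + 0.02 on a log axis, with chains of a head-to-head pair in 1 column, NIR in blue, IR in red and a bar at the mean of 3 libraries. COL4A1 and COL4A2 reach at least 85.4 CPM in every MCF10A library and stay below 1 CPM in every HCT116 library, and COL4A3 and COL4A4 show the reverse order of the lines.

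The collagens that anchor basal epithelium were also MCF10A genes. COL17A1, the transmembrane collagen of hemidesmosomes, was 665, 626 and 614 CPM in MCF10A NIR and 4.14, 3.29 and 2.79 CPM in HCT116 NIR (log2 difference -7.72 ± 0.09, adjusted p = 1.1e-20). COL7A1, the anchoring fibril collagen, was 68.0, 59.6 and 71.4 CPM against 9.63, 9.51 and 8.76 CPM (-3.03 ± 0.09). No library of HCT116 reached the lowest MCF10A library for either gene. COL12A1 and COL16A1, which associate with fibrils, followed the same order: COL12A1 was 381, 405 and 439.7 CPM against 89.0, 100.3 and 103 CPM (-2.27 ± 0.07), and COL16A1 was 28.3, 26.0 and 33.4 CPM against 3.5, 4.35 and 4.38 CPM (-3.04 ± 0.13). COL8A1, a short-chain network collagen, was 91.6, 96.3 and 93.3 CPM in MCF10A NIR and had 2 counts in all in HCT116 NIR, both in replicate 3, a ratio of 4424 whose 95% interval ran from 1224 to 36539, or from 794 to 174773 with counts halved (exact binomial, counting error only). COL5A2, a minor chain of type V fibres, had the smallest difference among the members called, at 11.1, 10.8 and 10.7 CPM against 8.19, 6.99 and 5.86 CPM (-0.83 ± 0.15, adjusted p = 5.8e-05), and COL6A3, COL11A1 and SPARC were also lower in HCT116.

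HCT116 expressed another set of collagens. COL6A1 and COL6A2, which join in 1 trimer with a further chain, were 88.1, 89.7 and 97.1 CPM and 94.4, 87.4 and 96.1 CPM in HCT116 NIR. In MCF10A NIR, COL6A1 was 11.9, 13.2 and 11.6 CPM and COL6A2 was 0.353, 0.113 and 0 CPM, so MCF10A held COL6A1 with almost no COL6A2. The log2 differences were 2.71 ± 0.08 (adjusted p = 3.1e-15) for COL6A1 and 8.93 ± 0.21 (adjusted p = 1.1e-16) for COL6A2, the latter 10.25 without MCF10A NIR replicate 1. COL18A1, a basement membrane collagen and the source of endostatin, was 2.15, 1.66 and 1.91 CPM in MCF10A NIR and 83.8, 76.3 and 75.7 CPM in HCT116 NIR (5.17 ± 0.11, adjusted p = 1.6e-17). In GENCODE v29, 16.4% of its exon bases overlap SLC19A1 on the opposite strand, and whether the counting used strand is not given in the sources used here. Overlaps of this kind touch 8 members in all, SPARC over 7.89% of its exon bases, THBS1 over 4.89% with FSIP1, and the reads of such partners cannot be told apart without strand. COL9A3, a chain of the fibril-associated type IX, had no count in MCF10A NIR and was 30.6, 28.2 and 29.9 CPM in HCT116 NIR. That is at least 974.6-fold higher in HCT116 against a floor of 3 counts over the group, or 487-fold with counts halved (counting error only). COL1A1, the main chain of type I, was 7.35, 5.94 and 6.25 CPM against 46.0, 38.5 and 42.0 CPM (2.50 ± 0.11), while COL1A2, its usual partner, was among the genes under 1 CPM. COL27A1, a fibrillar collagen, was 8.2, 6.06 and 4.51 CPM against 27.9, 25.6 and 24.0 CPM (1.84 ± 0.16), and COL13A1, a transmembrane collagen, was 3.59, 5.63 and 4.88 CPM against 17.5, 24.2 and 24.7 CPM (2.03 ± 0.17). For each of these the libraries of the lines did not overlap. COL9A2 and COL11A2, also higher in HCT116, had means below 10 CPM. COL10A1 was the 1 member tested and not called (0.11 ± 0.51, adjusted p = 0.86), and COL24A1, COL5A1 and POSTN were too low to be tested.

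The glycoproteins were mostly MCF10A genes. THBS1, an adhesive protein that also binds latent TGF-beta, was 1366, 1308 and 1332 CPM in MCF10A NIR and 28.4, 23.5 and 25.7 CPM in HCT116 NIR (-5.89 ± 0.07, adjusted p = 1.1e-20). FN1, the main adhesive protein of provisional matrix, was 1369, 1288 and 1317 CPM against 97.4, 62.7 and 64.2 CPM (-4.34 ± 0.12, adjusted p = 1e-15). TNC, an anti-adhesive protein, was 64.2, 61.9 and 52.4 CPM against 0, 0.249 and 0.145 CPM (-9.02 ± 0.24, and -8.37 to -9.96 with a HCT116 NIR library left out). Every MCF10A library lay above every HCT116 library for these genes and for SPARC, a collagen-binding protein, at 10.9, 11.4 and 10.7 CPM against 0.926, 1.18 and 2.17 CPM (-3.17 ± 0.24). SPP1, a phosphoprotein that binds integrins, was the exception, at 0.705 CPM on average in MCF10A NIR and 2.56 CPM in HCT116 NIR (1.69 ± 0.39, adjusted p = 0.00076). Set on a scale that allows genes to be compared, CPM per kilobase of exon in GENCODE v29, the highest levels in MCF10A NIR were 146 for THBS1, 89.9 for COL17A1, 76.5 for FN1 and 32.7 for COL12A1. In HCT116 NIR the highest were 17.2 for COL6A1 and for COL6A2, 9.22 for COL18A1 and 7.81 for COL12A1. COL12A1 was thus the only gene among the highest 4 of both lines on this scale.

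**Figure D2:**
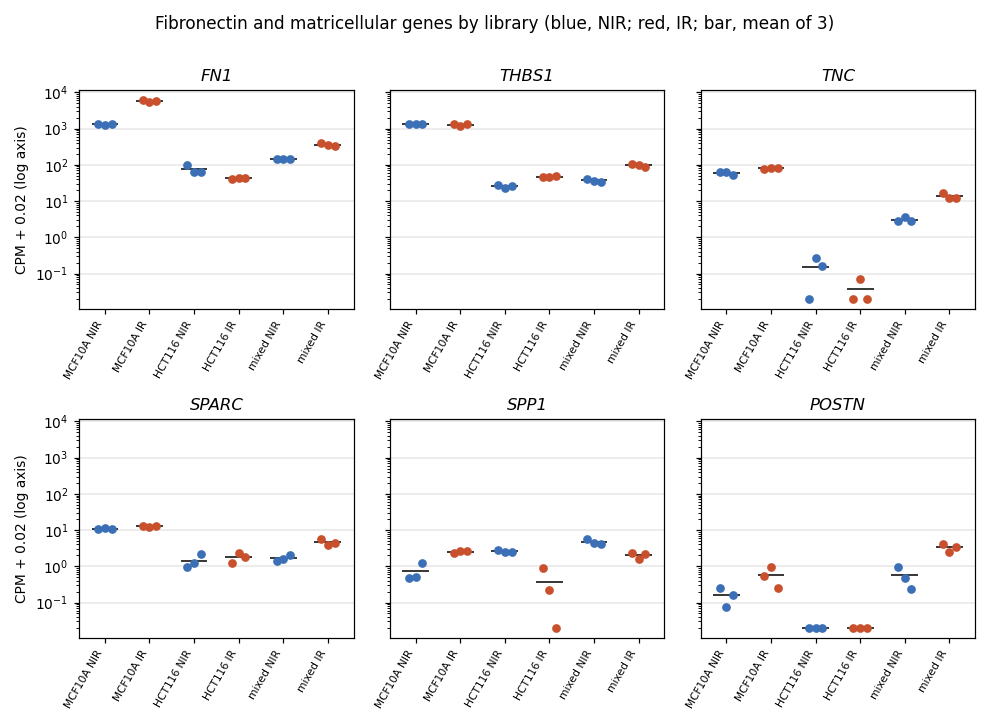
Levels of the 6 glycoproteins in all 18 libraries, as CPM + 0.02 on a log axis, NIR in blue, IR in red, bar at the mean of 3 libraries. FN1 rises from at most 1369 to at least 5360.4 CPM in MCF10A and is at most 44.2 CPM in irradiated HCT116, while the mixed libraries lie between those of the lines for FN1, TNC and THBS1.

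Irradiated MCF10A differed from non-irradiated MCF10A in 19 of the 26 members tested, 15 higher and 4 lower. The background of the same test was 55.4% of all genes called, 26.2% higher and 29.2% lower. COL11A1 was a member only through its level in MCF10A NIR, so its call as lower follows in part from the member rule. Of the members, 11 were called at least 2-fold higher and 1 at least 2-fold lower, where 7.13% and 3.37% of all genes were. The median log2 change was 0.33 over the members and 0.00 over all genes. With upper-quartile scaling the calls were 16 higher and 3 lower, and the share of higher genes among all calls moved from 47.4% to 57.5%.

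FN1 had the largest gain in level. It rose from 1369, 1288 and 1317 CPM in MCF10A NIR to 6053, 5360.4 and 5892 CPM in MCF10A IR, a log2 change of 2.10 ± 0.04 (adjusted p = 4.8e-25), and the groups lay far apart. Per kilobase of exon, FN1 went from 76.5 to 333 CPM and passed THBS1, which stood at 146 and 140.4. THBS1 was 1305, 1199 and 1354 CPM in MCF10A IR, overlapping its NIR values (-0.08 ± 0.04, adjusted p = 0.10). It was called lower without the low-count filter (-0.09, adjusted p = 0.025) and without MCF10A IR replicate 3 (-0.12, adjusted p = 0.023), and was 0.01 with upper-quartile scaling. TNC rose to 75.2, 83.1 and 81.3 CPM (0.40 ± 0.07, adjusted p = 8e-06) and SPP1 from a mean of 0.705 to 2.54 CPM (1.85 ± 0.37, adjusted p = 9.2e-05), with no overlap of groups for either. SPARC was 13.1, 12.4 and 13.3 CPM in MCF10A IR, above every NIR library, but its change of 0.21 ± 0.11 was not called (adjusted p = 0.11).

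The anchoring collagens rose with FN1. COL17A1 reached 1441, 1470.0 and 1467 CPM (1.18 ± 0.04, adjusted p = 5e-20) and COL7A1 168, 156 and 144 CPM (1.21 ± 0.06, adjusted p = 6.8e-16), both without overlap with NIR. COL6A1 rose to 32.6, 34.1 and 32.5 CPM (1.41 ± 0.09, adjusted p = 1.7e-13). COL6A2 remained low at 0.331, 0.912 and 1.59 CPM, with a change of 2.53 ± 0.69 that was 1.92 and not called without MCF10A IR replicate 3 (adjusted p = 0.061) and 3.86 without MCF10A NIR replicate 1. COL1A1 rose to 15.8, 16.0 and 11.0 CPM (1.11 ± 0.14), COL27A1 to 12.9, 13.5 and 15.5 CPM (1.13 ± 0.15), COL18A1 to 3.93, 3.65 and 4.2 CPM (1.02 ± 0.23) and COL16A1 to 46.0, 43.6 and 44.2 CPM (0.59 ± 0.08). Each of these 4 was higher in every IR library than in any NIR library. COL12A1 at 385, 423 and 411 CPM overlapped its NIR libraries (-0.03 ± 0.05, adjusted p = 0.63), as did COL5A2 at 10.6, 9.81 and 13.1 CPM, COL13A1 at 4.78, 5.03 and 5.09 CPM, COL6A3 and COL10A1.

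Type IV chains changed by pair in MCF10A. COL4A1 fell from 122, 118 and 121 CPM to 85.4, 91.2 and 90.6 CPM (-0.45 ± 0.05, adjusted p = 7.2e-09). COL4A2 fell from 261, 259 and 270.1 CPM to 183, 187 and 191 CPM (-0.52 ± 0.04, adjusted p = 2.2e-11). Neither gene's groups overlapped, and the ratio of COL4A2 to COL4A1, in CPM, was 2.19 ± 0.0557 before and 2.10 ± 0.0516 after. COL4A5 rose to 181, 179 and 187 CPM (0.25 ± 0.05, adjusted p = 4.2e-05) and COL4A6 to 154, 148 and 152 CPM (0.26 ± 0.05, adjusted p = 1.7e-05), and their ratio was 1.21 in both groups. The low pair rose as well, COL4A3 to 1.18, 1.09 and 1.76 CPM (1.49 ± 0.49, adjusted p = 0.011) and COL4A4 to 6.21, 4.74 and 6.64 CPM (1.29 ± 0.21, adjusted p = 5.2e-06). The COL4A3 change was 1.24 and not called without MCF10A IR replicate 3 (adjusted p = 0.084), and 2.33 without MCF10A NIR replicate 1. COL11A1 fell from a mean of 1.07 to 0.357 CPM (-1.59 ± 0.49, adjusted p = 0.0066). COL8A1, at 91.6, 82.2 and 87.5 CPM, was called lower by a small margin (-0.13 ± 0.05, adjusted p = 0.042). That call ended under 9 alternatives, among them upper-quartile scaling (-0.04, adjusted p = 0.52). The remaining 6 members, COL24A1, COL9A2, COL11A2, COL5A1, COL9A3 and POSTN, were too low to be tested in MCF10A.

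**Figure D3:**
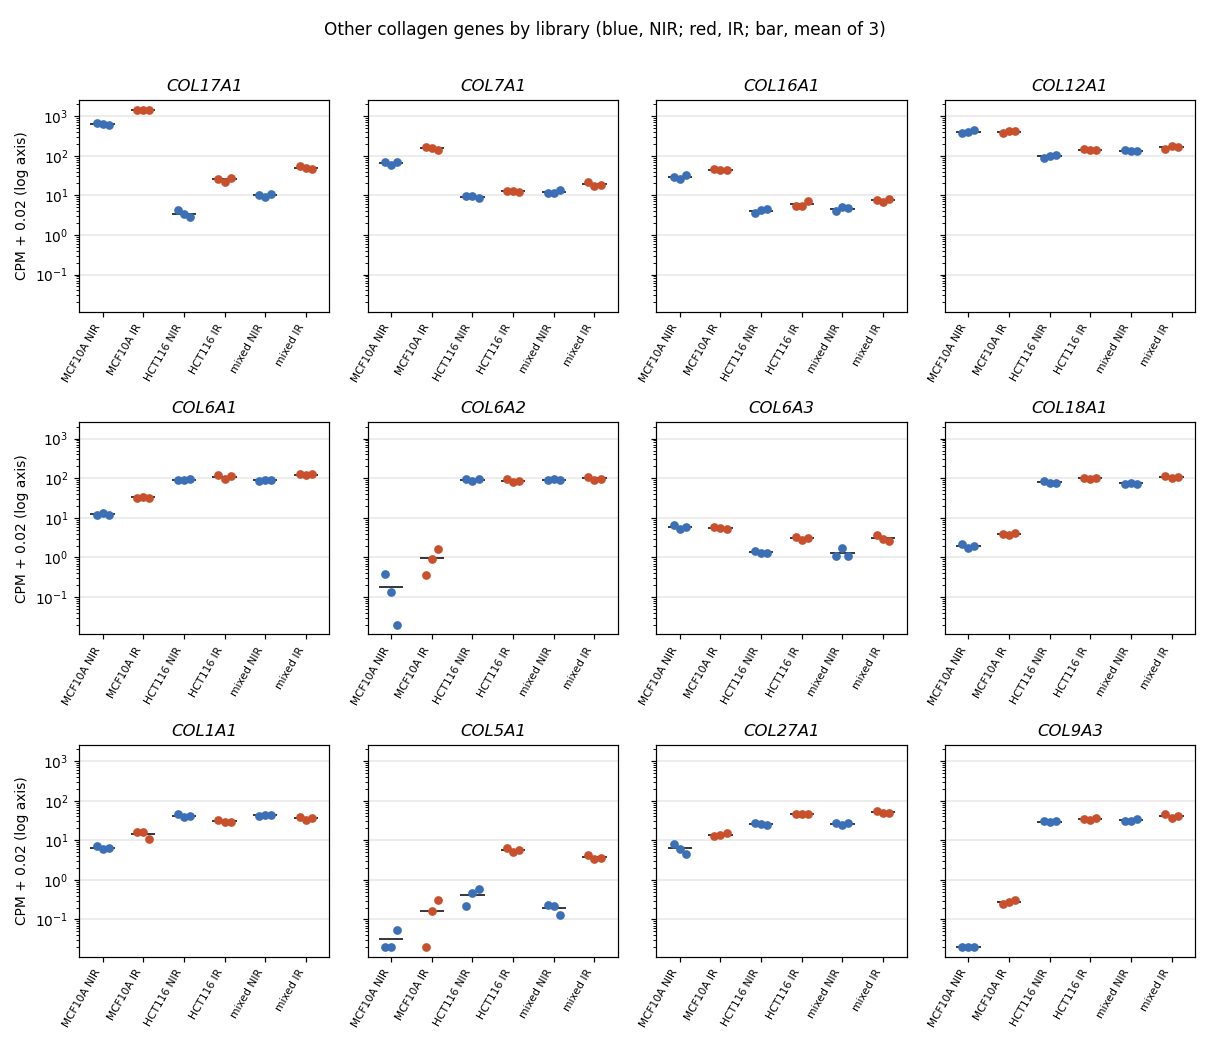
Levels of collagens outside type IV in all 18 libraries, as CPM + 0.02 on a log axis, NIR in blue, IR in red, bar at the mean of 3 libraries. COL17A1 is higher in IR than in NIR in each kind of culture, and COL6A2 and COL18A1 reach at most 4.2 CPM in MCF10A and at least 70.4 CPM in HCT116 and the mixed cultures.

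In HCT116, irradiated cells differed from non-irradiated cells in 20 of 27 members tested, 15 higher and 5 lower, on a background of 52.5% of all genes called, 25.3% higher and 27.2% lower. COL10A1 reached the 1 CPM of the member rule only in HCT116 IR, and COL5A1 only in HCT116 IR and mixed IR. Their calls as higher follow in part from that rule. Calls of at least 2-fold were 4 higher and 3 lower, where 5.99% and 6.91% of all genes had them. The median log2 change was 0.43 over the members and 0.01 over all genes.

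The largest rises were those of COL5A1, a chain of type V fibres, and COL17A1. COL5A1 went from 0.203, 0.435 and 0.579 CPM to 6.31, 4.97 and 5.83 CPM (3.84 ± 0.31, adjusted p = 3.5e-10). COL17A1 went from 4.14, 3.29 and 2.79 CPM to 26.3, 22.3 and 27.2 CPM (2.88 ± 0.14, adjusted p = 6.9e-14). Both genes lay clear of their NIR libraries, and irradiated HCT116 still had far less COL17A1 than MCF10A NIR. The other anchoring, transmembrane and multiplexin collagens also rose: COL7A1 to 12.8, 12.6 and 12.2 CPM (0.44 ± 0.12), COL13A1 to 32.2, 26.5 and 29.9 CPM (0.43 ± 0.12) and COL18A1 to 103, 96.5 and 101 CPM (0.36 ± 0.06). COL27A1 rose to 45.8, 46.6 and 47.2 CPM (0.86 ± 0.08, adjusted p = 6.5e-09), COL12A1 to 145, 139 and 142 CPM (0.55 ± 0.07, adjusted p = 2.1e-07) and COL6A1 to 119, 97.6 and 114 CPM (0.27 ± 0.07, adjusted p = 0.0028). None of these 6 genes overlapped between groups. COL6A2, the partner of COL6A1, was 95.1, 79.5 and 87.1 CPM and overlapped its NIR libraries (-0.08 ± 0.07, adjusted p = 0.35), while COL6A3 rose from a mean of 1.35 to 3.01 CPM (1.16 ± 0.27).

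The type IV pairs parted in HCT116 as well, in another way. COL4A3 fell from 32.7, 30.3 and 29.0 CPM to 10.5, 9.23 and 10.8 CPM (-1.59 ± 0.10, adjusted p = 9.3e-12). COL4A4 fell from 36.2, 32.2 and 34.8 CPM to 14.9, 13.5 and 16.1 CPM (-1.21 ± 0.10, adjusted p = 3.5e-10). COL4A5 rose to 85.5, 95.2 and 104 CPM (0.64 ± 0.11, adjusted p = 3.7e-05) and COL4A6 to 19.4, 17.0 and 15.9 CPM (0.90 ± 0.15, adjusted p = 2.6e-05). In all 4 genes the irradiated libraries did not overlap the others. COL4A1 was too low to be tested, at 0.122, 0.392 and 0.622 CPM after radiation, and COL4A2 at 0.396, 0.343 and 0.389 CPM was not called (1.36 ± 0.75, adjusted p = 0.14).

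Among the glycoproteins of HCT116, THBS1 rose to 47.3, 45.2 and 48.5 CPM (0.87 ± 0.09, adjusted p = 9.5e-09), whereas FN1 fell from 97.4, 62.7 and 64.2 CPM to 39.6, 44.2 and 43.2 CPM (-0.81 ± 0.11, adjusted p = 2.1e-06). Neither overlapped between groups. SPP1 fell from a mean of 2.56 to 0.350 CPM (-2.82 ± 0.55, adjusted p = 0.00015). DESeq2 gave it -2.86 and an adjusted p of 0.064, and without HCT116 IR replicate 1 it was -4.42. COL1A1 fell to 31.9, 28.7 and 29.5 CPM (-0.48 ± 0.09, adjusted p = 5.2e-05), below every NIR library. COL16A1, COL10A1 and COL9A3 were called higher by changes of 0.54, 1.43 and 0.23, and each of these calls ended in some setting. COL16A1 was 0.43 without HCT116 NIR replicate 1 (adjusted p = 0.086) and 0.39 without HCT116 IR replicate 3 (adjusted p = 0.12). COL9A3, at 34.7, 33.1 and 35.7 CPM after radiation, had an adjusted p of 0.11 without HCT116 NIR replicate 2, 0.057 without HCT116 IR replicate 1, 0.080 without HCT116 IR replicate 3 and 0.052 without the low-count filter. COL10A1 had an adjusted p of 0.055 with all 18 libraries in 1 fit, and lost its call without HCT116 NIR replicate 2 or 3 or HCT116 IR replicate 2 or 3 (0.99 to 1.41, adjusted p = 0.051 to 0.21). SPARC, COL5A2, COL11A2, COL9A2 and COL24A1 were not called, and TNC, COL8A1, COL11A1 and POSTN were too low to be tested.

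**Figure D4:**
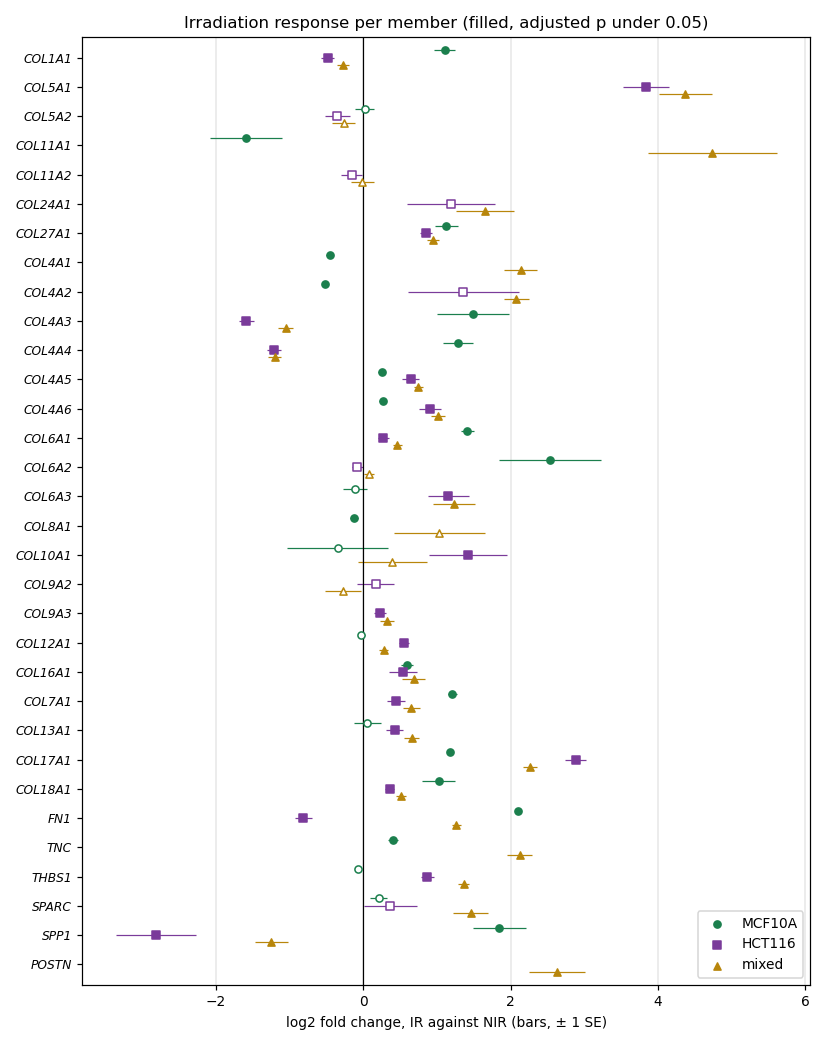
Log2 fold change of IR against NIR for each tested member in MCF10A (green circles), HCT116 (purple squares) and mixed cultures (gold triangles), with bars of 1 SE and filled symbols for an adjusted p under 0.05. FN1, SPP1, COL4A3, COL4A4 and COL1A1 lie right of 0 in MCF10A and left of 0 in HCT116.

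Whether the lines responded differently was itself tested, as the interaction of line and radiation. It was called for 19 of 31 members, 8 with a higher and 11 with a lower response in HCT116, on a background of 37.3% of all genes (15.4% and 21.9%). Differences of at least 2-fold were called higher for 5 and lower for 9 members, where 2.63% and 8.42% of all genes had them. The median difference was -0.35 over the members and -0.10 over all genes. FN1 differed by -2.99 ± 0.14 (adjusted p = 2e-14), COL4A3 by -3.16 ± 0.36, COL4A4 by -2.57 ± 0.20, COL1A1 by -1.66 ± 0.17 and SPP1 by -4.74 ± 0.75. These 5 genes were the members called higher in MCF10A and lower in HCT116. COL17A1 rose in both lines and more in HCT116, by 1.62 ± 0.11 (adjusted p = 3.8e-11), whereas COL7A1, COL18A1 and COL6A1 rose in both and less in HCT116, by -0.85, -0.75 and -1.22. COL12A1, THBS1 and COL6A3 were called higher in HCT116 and not in MCF10A, and their interaction was called too, at 0.50, 0.87 and 1.19. COL27A1, COL16A1 and COL4A5, called higher in both lines, had differences of -0.35, -0.14 and 0.31 that did not pass the threshold. The calls for COL4A1 (1.87 ± 0.49), COL4A2 (1.75 ± 0.42), TNC (-2.91 ± 1.02) and COL11A1 (2.59 ± 0.91) rest on HCT116 levels below 1 CPM. COL11A1 was also a member only through MCF10A NIR, so its call follows in part from the member rule. TNC was not called with counts halved (-2.73, adjusted p = 0.063), nor without HCT116 NIR replicate 2 or 3 or HCT116 IR replicate 1 or 3 (-1.97 to -2.82), and was -3.55 without HCT116 NIR replicate 1 and -5.31 without HCT116 IR replicate 2. COL11A1 lost its call without any of 7 libraries, MCF10A NIR replicates 2 and 3, MCF10A IR replicate 2, HCT116 NIR replicates 1 and 3 and HCT116 IR replicates 1 and 2 (2.25 to 2.58).

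In the mixed cultures the RNA came mostly from HCT116. Taken from genes of 1 line, with the members left out, MCF10A RNA was 0.407% ± 0.0801 of the RNA in mixed NIR and 1.21% ± 0.0664 in mixed IR, although the mixture is labelled 50-50. Stricter line-specific genes gave 0.304% and 1.00%. The mixed libraries were therefore set against HCT116 of the same treatment. In NIR, 8 of 28 members tested were called, all higher in the mixture, where 2.04% of all genes were called, 0.887% higher and 1.15% lower. In IR, 14 of 31 were called, 13 higher and 1 lower, where 8.56% were called and 5.08% higher. All 6 glycoproteins were called higher in mixed IR, at least 2-fold each, where 0.957% of all genes were. POSTN was a member only through its level in mixed IR, so its call follows in part from the member rule. These comparisons use the HCT116 libraries that are also the groups of the HCT116 response, so they are not independent of it.

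TNC went from 0, 0.249 and 0.145 CPM in HCT116 NIR to 2.86, 3.55 and 2.81 CPM in mixed NIR (4.56 ± 0.51, adjusted p = 3.3e-05). In IR it went from 2 counts in all in HCT116 to 16.7, 12.5 and 11.9 CPM in the mixture, a ratio of 678 with a 95% interval from 187 to 5604, or from 121 to 26817 with counts halved (exact binomial, counting error only). Both counts lay in HCT116 IR replicate 2, and the fitted log2 difference of 9.17 was 11.84 without it. Without HCT116 NIR replicate 2, which holds 8 of the 12 TNC counts of its group, the NIR difference was 5.49, and without replicate 1, which holds none, it was 3.93. COL4A1 was 2.5, 2.34 and 1.56 CPM in mixed NIR and 12.7, 7.14 and 8.67 CPM in mixed IR, log2 differences from HCT116 of 4.03 ± 0.49 and 4.68 ± 0.30. COL4A2 was 2.58, 3.32 and 3.22 CPM and 15.8, 12.3 and 11.4 CPM, log2 differences of 4.36 ± 0.48 and 5.12 ± 0.22. FN1 was 141, 148 and 149.5 CPM in mixed NIR and 389, 343 and 339.8 CPM in mixed IR, differences of 0.98 ± 0.11 and 3.07 ± 0.06. For these 4 genes no mixed library overlapped the HCT116 libraries of its treatment. THBS1 at 40.1, 36.3 and 34.5 CPM in mixed NIR and 104, 97.7 and 89.5 CPM in mixed IR, and COL17A1 at 10.3, 9 and 11.1 CPM and 54.8, 47.8 and 45.6 CPM, were also called higher in both. Their differences were 0.53 ± 0.09 and 1.04 ± 0.07 for THBS1 and 1.58 ± 0.17 and 0.96 ± 0.09 for COL17A1.

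How far these genes stood above HCT116 was expressed as a percentage of the MCF10A monoculture level, after taking away the HCT116 part. For comparison, MCF10A-specific genes were set against their MCF10A level with no HCT116 part taken away. Each was under 1 CPM in every HCT116 library, unlike FN1, THBS1 and COL17A1, so for those 3 the percentages are not built alike. The median of the MCF10A-specific genes was 0.400% in mixed NIR (middle 50% from 0.163 to 0.942%, 95th percentile 2.13%, 119 genes). In mixed IR the median was 1.13% (0.516 to 2.32%, 95th percentile 5.23%, 136 genes). TNC stood at 4.94% in NIR and 17.1% in IR, COL4A1 at 1.66% and 10.3%, COL4A2 at 1.10% and 6.84%, and FN1 at 5.40% and 5.47%. In mixed IR these 4 lay above the 95th percentile of the MCF10A-specific genes, and in mixed NIR TNC and FN1 did. For FN1 in mixed IR the margin was small (5.47% against 5.23%). It rested on mixed IR replicate 1, at 389 CPM against 343 and 339.8 CPM in replicates 2 and 3. THBS1 stood at 0.843% and 3.93%, COL17A1 at 1.06% and 1.68% and COL8A1 at 0.223% and 0.550%, below the 95th percentile in both. Put as the measured level over the sum of the monocultures weighted by their RNA shares, TNC was 8.24 in NIR and 13.9 in IR, FN1 1.83 and 3.20 and COL8A1 0.575 and 0.455. Which line made the RNA of a member in the mixture was not tested, since the counts carry no mark of the cell.

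**Figure D5:**
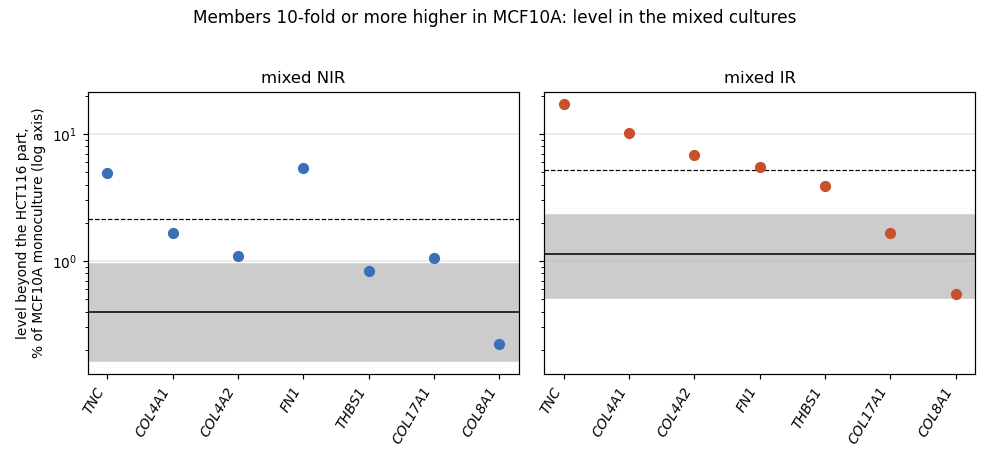
Level in mixed NIR (blue) and mixed IR (red) beyond the HCT116 part, as a percentage of the MCF10A monoculture level on a log axis, for the 7 members at least 10-fold higher in MCF10A under both treatments. The line is the median of MCF10A-specific genes, the band their middle 50% and the dashed line their 95th percentile. No HCT116 part was taken away for these genes. TNC, COL4A1, COL4A2 and FN1 lie above the dashed line in mixed IR, FN1 by a small margin (5.47% against 5.23%) that rests on replicate 1.

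POSTN, a protein of healing connective tissue, had no count in any HCT116 library and was 0.143 CPM on average in MCF10A NIR and 0.566 CPM in MCF10A IR. In the mixture it was 0.538 CPM in NIR and 4.08, 2.49 and 3.37 CPM in IR, above every monoculture library. Mixed IR was at least 109.7-fold higher than HCT116 IR against a floor of 3 counts over the group, or 54.86-fold with counts halved. SPP1 was 4.72 ± 0.858 CPM in mixed NIR against 2.56 CPM in HCT116 NIR and 0.705 CPM in MCF10A NIR (0.89 ± 0.21 against HCT116, adjusted p = 0.031). That call ended with all 18 libraries in 1 fit (0.90, adjusted p = 0.21) and without any HCT116 NIR library or mixed NIR replicate 1 or 2 (0.74 to 0.94, adjusted p = 0.054 to 0.20). In mixed IR, SPP1 was higher than in HCT116 IR by 2.47 ± 0.54 (adjusted p = 0.0029), 4.07 without HCT116 IR replicate 1, and not called by DESeq2 (2.51, adjusted p = 0.27). SPARC rose from 1.36, 1.56 and 1.97 CPM in mixed NIR to 5.75, 3.74 and 4.31 CPM in mixed IR, above HCT116 IR at 1.25, 2.35 and 1.83 CPM (1.32 ± 0.24, adjusted p = 0.00038).

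COL4A5, COL4A6 and COL7A1 were higher in mixed IR than in HCT116 IR, by 0.50 ± 0.06, 0.67 ± 0.10 and 0.60 ± 0.11, and were not called in NIR (0.38, 0.55 and 0.38, adjusted p = 0.10, 0.086 and 0.15). In mixed IR, COL4A5 was 132, 131 and 140.4 CPM, COL4A6 28.3, 26.2 and 29.2 CPM and COL7A1 21.9, 17.7 and 17.9 CPM, in every library above those of HCT116 IR. COL12A1 was called higher in both, by 0.47 ± 0.07 in NIR and 0.21 ± 0.06 in IR, and the IR call ended without HCT116 IR replicate 2 or 3 or mixed IR replicate 2 or 3 (0.16 to 0.21). COL5A1 was the 1 member called lower, at 4.28, 3.31 and 3.59 CPM in mixed IR (-0.62 ± 0.18, adjusted p = 0.026). It was not called with all 18 libraries in 1 fit (-0.59, adjusted p = 0.35), nor without HCT116 IR replicate 1 or 3 or mixed IR replicate 2 or 3 (-0.54 to -0.61). The HCT116 collagens COL6A1, COL6A2, COL18A1, COL1A1, COL27A1, COL13A1, COL9A3, COL4A3 and COL4A4 were not called in either comparison, with log2 differences between -0.31 and 0.29.

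Irradiated and non-irradiated mixtures differed in 26 of 32 members, 22 higher and 4 lower, on a background of 49.4% of all genes called, 24% higher and 25.4% lower. POSTN and COL24A1 reached the 1 CPM of the member rule only in mixed IR, and COL5A1 only in mixed IR and HCT116 IR. Their calls as higher follow in part from that rule. Calls of at least 2-fold were 13 higher and 3 lower, where 6.05% and 4.29% of all genes had them. The median log2 change was 0.72 over the members and 0.01 over all genes. COL4A1 and COL4A2 rose by 2.14 ± 0.22 and 2.08 ± 0.17, whereas both fell in MCF10A alone. TNC rose by 2.12 ± 0.17, FN1 by 1.26 ± 0.06, THBS1 by 1.37 ± 0.08, SPARC by 1.46 ± 0.24 and POSTN by 2.64 ± 0.38, the last 3.23 without mixed NIR replicate 1. The MCF10A share of the RNA also moved between these groups, from 0.407% to 1.21%, and its part in these changes was not tested. THBS1 was also called higher in HCT116 alone. COL4A3 fell by 1.05, COL4A4 by 1.20 and SPP1 by 1.25, as in HCT116 alone, whereas these genes rose in MCF10A alone. COL5A1 rose by 4.37 ± 0.36, as in HCT116 alone, and was too low to be tested in MCF10A. COL17A1 rose by 2.26 ± 0.10 and COL27A1 by 0.94 ± 0.08, as they did in both lines alone. COL4A3 went from 22.6, 28.1 and 25.5 CPM to 11.8, 12.1 and 13.5 CPM, and COL4A4 from 32.1, 39.3 and 35.0 CPM to 15.5, 15.7 and 15.9 CPM, without overlap. COL18A1 reached 113, 101 and 108 CPM from 70.4, 77.7 and 73.5 CPM, and COL6A1 127, 119 and 125 CPM from 82.8, 90.3 and 91.3 CPM (0.51 ± 0.07 and 0.46 ± 0.06). COL6A2 at 110.3, 90.6 and 95.5 CPM overlapped its NIR libraries at 91.7, 93.9 and 89.9 CPM (0.08 ± 0.07, adjusted p = 0.37). COL11A1 rose by 4.74 ± 0.88 from 2 counts in all to 0.646 CPM, a ratio of 31.7 with a 95% interval from 8.45 to 267, or from 5.33 to 1287 with counts halved (exact binomial, counting error only), and by 7.48 without mixed NIR replicate 2. COL1A1 was called lower by -0.27 ± 0.08, a call that ended with all 18 libraries in 1 fit (-0.23, adjusted p = 0.080) and without mixed IR replicate 2 (-0.20, adjusted p = 0.076). COL9A3 was called higher by 0.32 ± 0.09, and not without mixed IR replicate 1 (0.20, adjusted p = 0.091).

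The response to radiation in the mixture was also tested against that in HCT116. It differed for 3 of 32 members, FN1 by 2.09 ± 0.14 (adjusted p = 1.2e-09), TNC by 4.59 ± 1.01 (adjusted p = 0.024) and THBS1 by 0.51 ± 0.11 (adjusted p = 0.024), all higher in the mixture, on a background of 0.83% of all genes, 0.681% higher. FN1 kept this call in every setting. TNC was not called with counts halved (4.41, adjusted p = 0.092), nor without HCT116 NIR replicate 2 or 3, HCT116 IR replicate 1 or 3, or mixed NIR replicate 1 (3.63 to 4.52, adjusted p = 0.051 to 0.26), and was 5.21 without HCT116 NIR replicate 1 and 7.21 without HCT116 IR replicate 2. THBS1 lost its call in 9 of 12 fits with 1 library left out (0.42 to 0.50), those without HCT116 NIR replicate 1 or 3, any HCT116 IR library, mixed NIR replicate 2 or 3, or mixed IR replicate 1 or 2.

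Of a list of 37 enzymes, chaperones and other genes for the modification, folding, export, processing and crosslinking of collagen, 36 were tested in MCF10A, and 20 rose and 8 fell after radiation (median log2 change 0.30), where 26.2% of all genes were called higher and 29.2% lower. In HCT116, 8 of 36 rose and 14 fell (median -0.19), on a background of 25.3% higher and 27.2% lower. The response differed between the lines for 23 of 37 genes, lower in HCT116 for 20 and higher for 3, where 21.9% and 15.4% of all genes were called. PLOD2, a lysyl hydroxylase of collagen telopeptides, rose from 339 to 670.5 CPM in MCF10A (0.96) and fell by 1.12 in HCT116. SERPINH1, the collagen chaperone HSP47, fell by 0.53 in MCF10A and rose by 0.60 in HCT116. TGM2, a crosslinking transglutaminase, rose in MCF10A by 1.68, in HCT116 by 0.74 and in the mixture by 1.11. In the mixture 8 of 36 rose and 13 fell, where 24% of all genes were called higher and 25.4% lower.

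Of 31 genes for collagen receptors and matrix partners, 22 were tested in each culture. In MCF10A, 15 rose and 1 fell (median 0.58), in HCT116 7 rose and 7 fell (median 0.01), and in the mixture 7 rose and 3 fell (median 0.18). The shares of all genes called higher and lower were those just given. HSPG2, the basement membrane proteoglycan perlecan, rose by 0.86 in MCF10A, by 1.49 in HCT116 and by 1.56 in the mixture. FBN1, the microfibril protein fibrillin-1, rose by 0.71 in MCF10A, where SDC3, a syndecan, fell by 0.30. In HCT116, LGALS3BP, a secreted binding protein of galectin-3, rose by 1.02. TNXB fell by 0.96 in HCT116, and FBLN1, the matrix protein fibulin-1, by 0.82.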

How the data were processed

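Poly(A)-selected RNA of 18 libraries was sequenced with a stranded kit, per the labels' protocols. The authors deposited raw counts per gene symbol, 1 table per library, without normalization. The submitters' processing notes name fastp, STAR, featureCounts and GRCh38, and the settings, strand use and annotation are not given in the sources used here. CPM is a gene's count times 1e+06 over the library total (25737818 to 40839835 counts). Comparisons used the libraries of the groups compared, with edgeR 4.0.16 in R 4.3.3 (TMM, filterByExpr, quasi-likelihood test, 2-sided), Benjamini-Hochberg adjustment over all genes tested and a call at an adjusted p under 0.05. SE is the log2 fold change over the root of F. The fits were tested on simulated counts. Alternatives were upper-quartile scaling, library size only, no filter, DESeq2 1.42.0, halved counts, all 18 libraries in 1 fit, a replicate block and each library left out. MCF10A RNA in mixtures was taken from genes of at least 20 CPM in a line and under 1 CPM in the other. Every member of at least 1 CPM in a group is named, and those of at least 10 CPM are given by library. From the lists of biosynthesis genes and of receptors and partners, a fixed rule picked genes by size of change, and only some of those picked are named. The members and lists were chosen with earlier results of these data known. Gene models came from GENCODE v29 and promoter stretches from RefSeq. No library was left out as a copy: replicate libraries differed by more than sampling noise.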

Additional observations from a re-analysis of the deposited data

Results flagged for a closer look

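The response to radiation differed between the lines, by the interaction test of edgeR, for 19 members, and each difference below is the log2 change in HCT116 minus that in MCF10A. It was lower in HCT116 for COL9A3 (-5.97), SPP1 (-4.74), COL4A3 (-3.16), FN1 (-2.99), TNC (-2.91), COL6A2 (-2.72), COL4A4 (-2.57), COL1A1 (-1.66), COL6A1 (-1.22), COL7A1 (-0.85) and COL18A1 (-0.75). It was higher in HCT116 for COL12A1 (0.50), COL4A6 (0.56), THBS1 (0.87), COL6A3 (1.19), COL17A1 (1.62), COL4A2 (1.75), COL4A1 (1.87) and COL11A1 (2.59). COL9A3 had no count in MCF10A NIR and 0.22, 0.255 and 0.294 CPM in MCF10A IR, so its fitted difference depends on the prior count. COL6A2 in MCF10A was at most 1.59 CPM, and its difference was -4.06 without MCF10A NIR replicate 1 and -1.95 without MCF10A IR replicate 3. COL4A3 was -4.01 without MCF10A NIR replicate 1, and SPP1 was -6.33 without HCT116 IR replicate 1 and -5.32 without MCF10A NIR replicate 3.

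Between the mixture and HCT116, the response was higher in the mixture for TNC (4.59), FN1 (2.09) and THBS1 (0.51). The TNC value rests on 12 counts in HCT116 NIR and 2 in HCT116 IR.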

How the results depend on the processing

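No called change or difference turned its direction under the alternatives run. The sign turned in some setting for 33 changes or differences that were not called as reported, and none of these was called under the setting that turned it. The count of members whose response differed between the mixture and HCT116 was 3, and it was 5 with DESeq2, 6 without the low-count filter and 1 to 3 with a library left out. The MCF10A share of mixed RNA was 0.304% in NIR and 1.00% in IR with stricter line-specific genes. The counts of called members in the other 7 comparisons stayed within 1.5 times of those reported: 17 to 22 in MCF10A, 17 to 20 in HCT116 and 25 to 26 in the mixture for the response to radiation, left-out libraries included. Of the calls reported, 16 of 19 in MCF10A, 16 of 20 in HCT116, 24 of 26 in the mixture, 28 of 28 between the lines, 17 of 19 of the response differences between the lines, 7 of 8 and 11 of 14 for the mixture against HCT116 in NIR and IR, and 1 of 3 of the response differences between those held in every setting. A setting that gave a gene no adjusted p was passed over in these counts. Libraries of the same replicate number were not treated as pairs, since their deviations from the group means had correlations between -0.126 and 0.172 over the 15 pairs of groups. With the replicate number as a block, the called members were 20 in MCF10A, 19 in HCT116, 26 in the mixture and 28 between the lines. They were 18 for the difference of the lines' responses, 10 and 19 for the mixture against HCT116 in NIR and IR, and 3 for the difference of those responses. The shares of all genes called under the settings of this section are not given here, so a shift in these counts describes the fits and not the members. The block ended the calls of COL10A1 in HCT116 (1.25, adjusted p = 0.072) and of COL11A1 for the difference of responses between the lines (2.50, adjusted p = 0.053), and THBS1 in MCF10A was called with it (-0.08, adjusted p = 0.039). Depth limits the genes under 1 CPM in a line, where 1 library moved the fitted changes most.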
